A study of Homo sapiens with 6 samples.

Results

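The genes described here encode the nuclear part of respiratory complex I, the NADH:ubiquinone oxidoreductase of the inner mitochondrial membrane, and factors that assemble it. They were taken as all rows of the deposited table whose symbol starts with NDUF, which gave 48 of 20289 genes. Of these rows, 37 are complex I subunits, 7 of them core and 30 accessory. A further 8 are the assembly factors with NDUFAF symbols, which do not stay in the finished enzyme. The other 3 rows are NDUFA4, which was later placed in cytochrome c oxidase (complex IV), its paralogue NDUFA4L2, and NDUFC2-KCTD14, a read-through row whose annotated exonic bases all overlap NDUFC2 or KCTD14. RNA of SW480, a cell line from a human colon adenocarcinoma, was sequenced in 3 libraries of MUCP1-FLAG cells, labelled as overexpressing the Flag-tagged microprotein MUCP1, and in 3 libraries of LV-NC cells, labelled wild type with a treatment of none or LV-NC. Cells of both kinds grew in serum-containing L-15 medium, and an mRNA kit was used for the libraries. The labels call the libraries biological replicates and name no clone, passage or batch, so p-values measure the spread between these libraries, part of which may be technical. No row of the table is named MUCP1, so its overexpression was not checked here.

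Complex I takes electrons from NADH, passes them through a flavin and a chain of iron-sulfur clusters to ubiquinone, and pumps protons as it does so. The N module at the tip of its matrix arm oxidises NADH, the Q module below it reduces ubiquinone, and the proximal and distal parts of the membrane arm hold the proton pumps. The core membrane subunits are encoded by mitochondrial DNA and all other subunits by nuclear genes, so assembly draws on both genomes. Assembly factors bind intermediates, modify subunits or help to insert clusters, and leave before the enzyme is complete. The series title names succinate, which feeds electrons in parallel through complex II. The comparison addresses which transcripts differ in cells labelled as overexpressing MUCP1, here among those of complex I.

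The libraries held 17333329 to 23282604 counts. Levels are given as CPM, a count scaled to the library's size by edgeR's TMM factors. Of 8 epithelial markers, 7 stood at 1 CPM or more in every library, and their summed level, most of it KRT8 and KRT18, was 6873 to 7051 CPM in MUCP1-FLAG and 6391 to 7067 CPM in LV-NC. Of the 7 tested, 3 fell (42.9%) and 1 rose (14.3%) by edgeR, beside 7.71% lower and 8.35% higher over all tested genes. CDH1, EPCAM and VIL1 had log2 fold changes of −1.06 ± 0.08, −0.33 ± 0.05 and −0.40 ± 0.10 (SE), and KRT19 had 0.17 ± 0.05 (SE). Summed blood cell markers stood at 7.89 to 10.2 CPM in MUCP1-FLAG and 13.1 to 13.9 CPM in LV-NC, most of it CD68, which fell (log2 fold change −0.62 ± 0.11 SE, edgeR adjusted p 0.000554), and fibroblast markers at 0.695 to 1.08 CPM in MUCP1-FLAG and 1.099 to 1.25 CPM in LV-NC. Of the endothelial markers VWF had 4.17, 2.26 and 2.82 CPM in MUCP1-FLAG and 2.87, 2.41 and 3.30 CPM in LV-NC. PTPRC, PECAM1, CDH5, KDR, COL1A2, COL3A1 and DCN were at 0 in every library. The part of the markers' differences in the results below was not tested.

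The 3 subunit genes that rose in MUCP1-FLAG, NDUFA12, NDUFS1 and NDUFA2, encode parts of the N module. The 250 bases before their RefSeq transcription starts are printed to show what lies upstream of the genes that passed the test (GRCh38.p14, 5′ to 3′ on the gene's own strand). For this, 3 motifs were searched on both strands. They were GCGC and TGCGC with any 1 base between them, the site of the respiratory factor NRF1, CCGGAAG, the core of the ETS site that GABPA binds, and AAGATGGCG, a YY1 site. Capitals mark their matches. The stretch of NDUFA12 is chr12:95003698-95003947, that of NDUFS1 chr2:206159445-206159694, for the upstream one of its 2 listed starts, and that of NDUFA2 chr5:140647631-140647880, all on the minus strand.
NDUFA12: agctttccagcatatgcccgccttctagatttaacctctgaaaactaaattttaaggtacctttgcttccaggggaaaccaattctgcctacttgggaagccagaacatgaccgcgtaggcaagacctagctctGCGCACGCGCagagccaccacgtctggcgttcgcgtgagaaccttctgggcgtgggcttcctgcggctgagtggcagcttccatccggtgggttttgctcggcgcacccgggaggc
NDUFS1: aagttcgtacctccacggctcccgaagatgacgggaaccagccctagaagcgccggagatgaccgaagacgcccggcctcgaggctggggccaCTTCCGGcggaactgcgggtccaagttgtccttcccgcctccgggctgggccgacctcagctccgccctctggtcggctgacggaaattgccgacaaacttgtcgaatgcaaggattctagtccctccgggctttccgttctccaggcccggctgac
NDUFA2: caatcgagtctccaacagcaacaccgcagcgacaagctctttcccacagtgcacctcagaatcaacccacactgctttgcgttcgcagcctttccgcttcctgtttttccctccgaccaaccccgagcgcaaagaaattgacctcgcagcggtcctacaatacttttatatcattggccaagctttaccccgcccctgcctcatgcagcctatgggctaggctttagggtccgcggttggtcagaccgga

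NDUFA12 held an NRF1 match at position −116 from the start, and NDUFS1 an ETS match at position −157, while the window of its other listed start held no match. The NDUFA2 stretch held none of these motifs. The promoter table matched 40 of the 48 rows, and 8 were not matched. In the whole window of 300 bases, which runs 50 bases past the start, the NRF1 letters stood in 6 of 32 subunit genes (18.8%) and 1 of 7 NDUFAF genes, against 6.98% of all 27305 genes of the table and 9.66% of its protein-coding genes. The ETS letters stood in 5 of 32 subunit genes (15.6%) and 2 of 7 NDUFAF genes, against 12.2% of all genes and 16.5% of protein-coding genes. The YY1 letters stood in 6 of 32 subunit genes (18.8%) and 1 of 7 NDUFAF genes, against 2.14% of all genes and 3.21% of protein-coding genes. All YY1 matches among the members began 9 to 25 bases past a start. They were in NDUFA6, NDUFA7, NDUFA9, NDUFB8, NDUFS4, NDUFS7 and NDUFAF8, none of which passed the edgeR test. A match describes letters and does not show that a factor binds.

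Per length, the members covered a wide range. By deposited FPKM, which scales counts for gene length and depth, the mean level over 6 libraries ran from 8.50 FPKM (NDUFA9) to 141 FPKM (NDUFC2) among the 37 subunits, a 16.6-fold span, with a median of 57.2 FPKM. The 8 assembly factors ran from 7.33 FPKM (NDUFAF5) to 41.8 FPKM (NDUFAF2), with a median of 15.1 FPKM. Of the subunits 20 were above 50 FPKM, and of the assembly factors 0. NDUFC2, a small subunit of the proximal membrane arm, led with 147 ± 16.4 FPKM in MUCP1-FLAG and 136 ± 5.86 FPKM in LV-NC (SD, n = 3 per group, as for all values with ± below unless SE is named). The read-through row and THRSP overlap 18.1% of the exonic bases of NDUFC2. NDUFA12 followed with 139 ± 7.30 FPKM in MUCP1-FLAG and 118 ± 5.85 FPKM in LV-NC, and NDUFB11, an X-linked subunit of the distal arm, came next with 124 ± 6.10 FPKM in MUCP1-FLAG and 120 ± 7.49 FPKM in LV-NC. NDUFS6, a zinc-binding subunit, with 124 ± 6.70 FPKM in MUCP1-FLAG and 120 ± 2.97 FPKM in LV-NC, and NDUFV2, with 120 ± 4.68 FPKM in MUCP1-FLAG and 120 ± 3.71 FPKM in LV-NC, did not differ from NDUFB11 beyond their spread. At the low end stood NDUFA4L2, with 1.28 ± 0.218 FPKM in MUCP1-FLAG and 1.51 ± 0.322 FPKM in LV-NC, the read-through row NDUFC2-KCTD14, with 5.04 ± 2.35 FPKM in MUCP1-FLAG and 4.51 ± 1.4996 FPKM in LV-NC, and NDUFAF5, with 7.17 ± 0.601 FPKM in MUCP1-FLAG and 7.48 ± 0.601 FPKM in LV-NC.

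**Figure D1:**
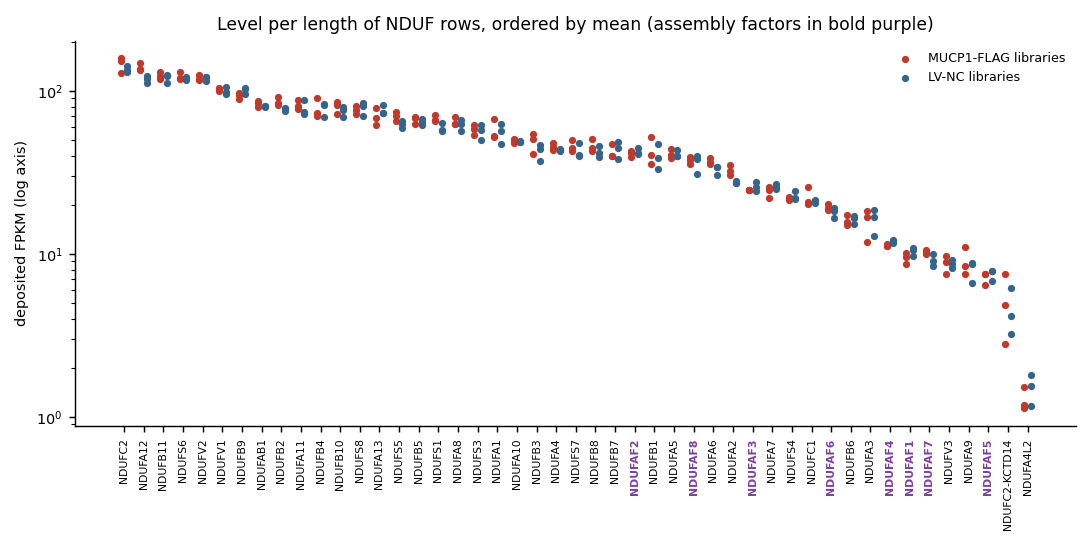
Deposited FPKM of 47 of the 48 NDUF rows on a log axis, ordered by the mean, with 1 point per library (MUCP1-FLAG left of LV-NC). NDUFC2 leads at a mean of 141 FPKM, NDUFA4L2 is last at 1.40 FPKM, and no NDUFAF gene is above 41.8 FPKM.

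The order at the low end depends on the length the authors used. The length implied by count, FPKM and library total was 560 bases for NDUFA12 but 5485 bases for NDUFV3, an accessory N module subunit at 8.68 FPKM, and 5056 bases for NDUFA9. By counts scaled only for depth, NDUFV3 stood at 48.0 ± 5.85 CPM in MUCP1-FLAG and 47.2 ± 2.37 CPM in LV-NC, and NDUFA9 at 43.7 ± 3.35 CPM in MUCP1-FLAG and 40.7 ± 5.41 CPM in LV-NC. For NDUFA9, a Q module subunit with a dehydrogenase-like fold, counts and FPKM did not run in parallel. Its implied length was 4269, 5019 and 5417 bases in the MUCP1-FLAG libraries and 6364, 5185 and 4081 bases in the LV-NC libraries. The largest of these was 1.56 times the smallest, a ratio reached by 1.11% of 8909 genes with over 200 counts in every library, while 42 of 45 such members stayed under 1.1.

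Few subunit genes changed, and those by small amounts. Of 37 subunit genes, all tested, 3 rose in MUCP1-FLAG (8.11%) and 0 fell at an edgeR adjusted p under 0.05. Over all 12920 tested genes, 8.35% were called higher and 7.71% lower (16.1% in all), so the share of rising subunits lay near the background. The median log2 fold change of the subunits was 0.07, beside −0.004 over all tested genes, and 28 of 37 had a positive value, beside 49% of all genes. With a single library left out, the subunit median lay between 0.02, without MUCP1-FLAG replicate 2, and 0.10. At an unadjusted p under 0.05 there were 6 subunits (16.2%), all of them positive and 0 negative, against 29.4% of all genes. DESeq2 and limma on log2(FPKM + 1) each called 2 subunits higher and 0 lower, and each had 0 on the lower side at an unadjusted p under 0.05. Over all genes, DESeq2 called 886 higher and 744 lower, and limma on log2(FPKM + 1) called 517 higher and 553 lower. The SE of the subunits' log2 fold changes ran from 0.05 to 0.15.

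**Figure D2:**
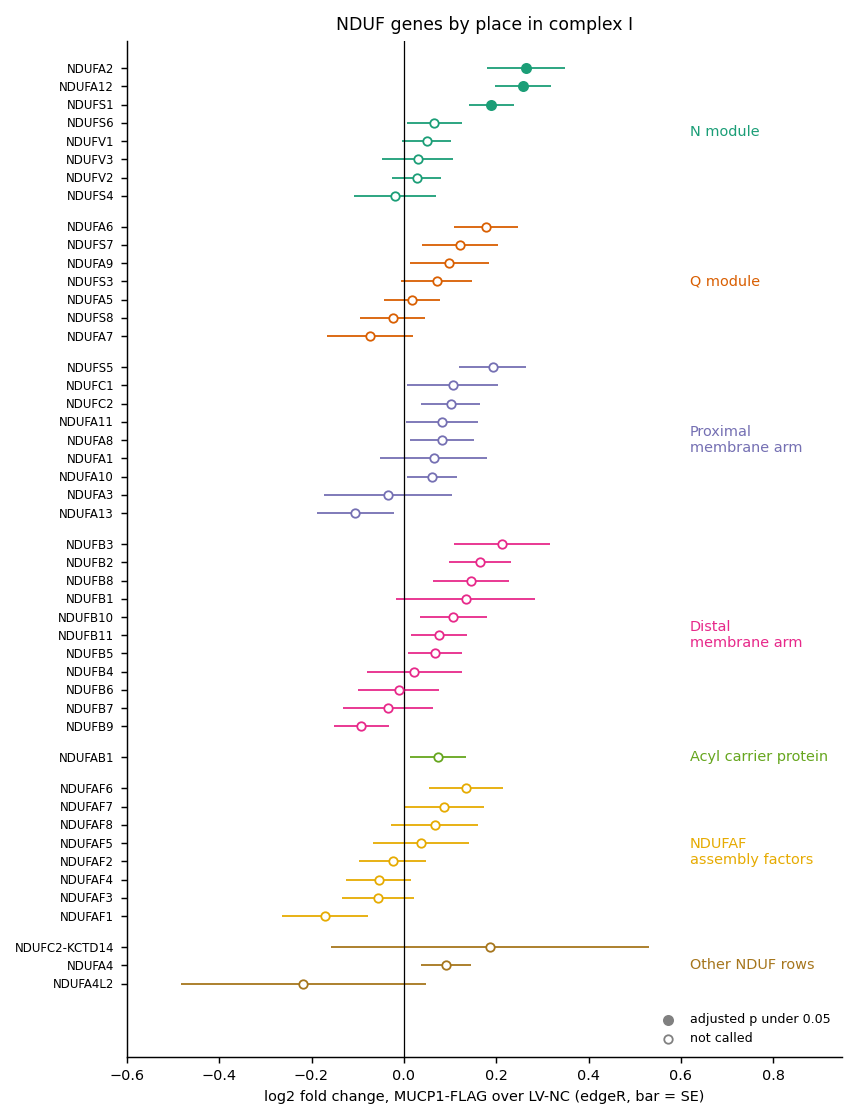
Log2 fold change of MUCP1-FLAG over LV-NC with its SE (edgeR) for 47 of the 48 NDUF rows, grouped by place in complex I, with filled points for an adjusted p under 0.05. The filled points are NDUFA2, NDUFA12 and NDUFS1 of the N module, at 0.26, 0.26 and 0.19, and all other points are open.

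NDUFA12, a small N module subunit that takes the place of the assembly factor NDUFAF2 late in assembly, had 75.3, 83.8 and 76.4 CPM in MUCP1-FLAG and 62.3, 66.5 and 68.2 CPM in LV-NC. Every MUCP1-FLAG value was above every LV-NC value. The difference was 1.20-fold, with a log2 fold change of 0.26 ± 0.06 (SE) and an edgeR adjusted p of 0.00473. The gene (ENSG00000184752) lies on chromosome 12 at 94897055 to 95003770 of GRCh38 (GENCODE 29), minus strand, and its exons overlap no other annotated gene. Without MUCP1-FLAG replicate 2 the edgeR adjusted p of NDUFA12 was 0.0531.

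NDUFS1, the largest subunit and the core N module protein that carries several iron-sulfur clusters, had 187, 183 and 175 CPM in MUCP1-FLAG and 155, 158 and 165 CPM in LV-NC. The groups did not overlap. The log2 fold change was 0.19 ± 0.05 (SE), or 1.14-fold, with an edgeR adjusted p of 0.00987. NDUFS1 (ENSG00000023228) lies on chromosome 2 at 206114817 to 206159603, minus strand, and 11.7% of its exonic bases overlap other genes, among them EEF1B2 on the opposite strand. No source used here says whether counting used the strand, so reads of such stretches may belong to either gene. The adjusted p of NDUFS1 was 0.0623 by edgeR when LV-NC replicate 2 was left out, 0.0727 by edgeR when MUCP1-FLAG replicate 1 was, and 0.0766 by limma on log2(FPKM + 1).

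NDUFA2, an accessory N module subunit with a thioredoxin-like fold, had 20.9, 22.9 and 19.8 CPM in MUCP1-FLAG and 18.1, 17.6 and 17.4 CPM in LV-NC. The groups were apart, and the LV-NC values lay close together. The log2 fold change was 0.26 ± 0.08 (SE), or 1.20-fold, with an edgeR adjusted p of 0.0352. NDUFA2 (ENSG00000131495) lies on chromosome 5 at 140638740 to 140647785, minus strand, where 13.0% of its exonic bases overlap TMCO6 and IK on the opposite strand. Its edgeR adjusted p was 0.115 when LV-NC replicate 2 was left out, 0.0738 when MUCP1-FLAG replicate 1 was and 0.202 when MUCP1-FLAG replicate 2 was, and DESeq2 gave an adjusted p of 0.101. The authors' deposited table has an adjusted p of 0.00390 for NDUFA12, 0.00586 for NDUFS1 and 0.127 for NDUFA2. Of the 48 members, 2 pass 0.05 in the authors' deposited table, against 7.5% of its 20289 rows. Those rows include genes with too few counts for the edgeR test, while all 48 members were tested, so the shares are not like for like.

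**Figure D3:**
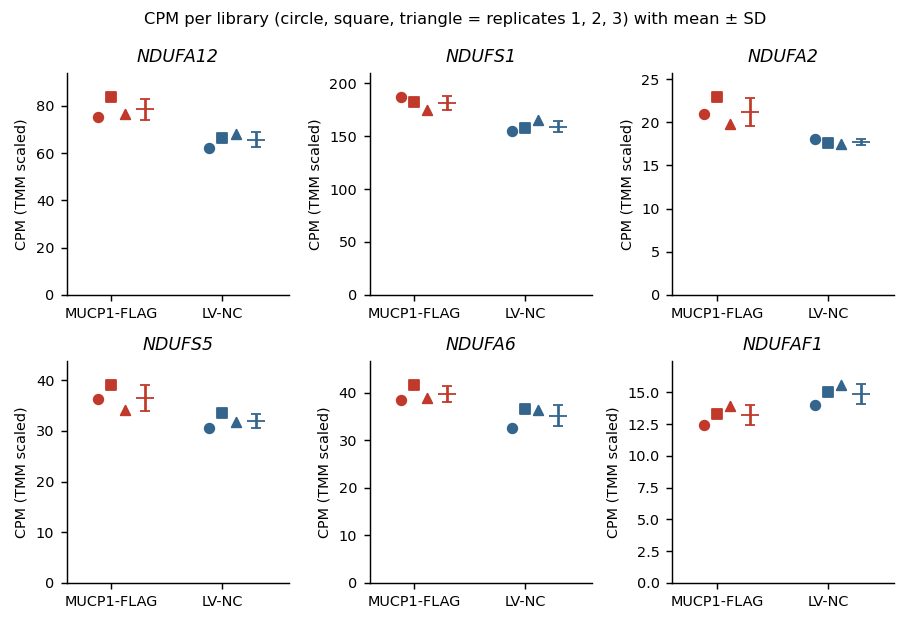
CPM per library, MUCP1-FLAG left of LV-NC, for the called subunits NDUFA12, NDUFS1 and NDUFA2 and for NDUFS5, NDUFA6 and NDUFAF1, which were not called. Symbols mark replicates 1 to 3 beside the mean ± SD. The groups do not overlap in any panel, by a small margin for NDUFAF1 (12.4 to 13.9 CPM in MUCP1-FLAG and 14.0 to 15.6 CPM in LV-NC).

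The rest of the N module did not pass the test. NDUFV1, the flavin-bearing core subunit that binds NADH, had 151, 152 and 147 CPM in MUCP1-FLAG and 155, 143 and 136 CPM in LV-NC, which overlap (log2 fold change 0.05 ± 0.05 SE, edgeR adjusted p 0.587). NDUFV2, its iron-sulfur partner, had 104 ± 4.64 CPM in MUCP1-FLAG and 102 ± 2.88 CPM in LV-NC (log2 fold change 0.03 ± 0.05 SE, edgeR adjusted p 0.781). The accessory N module subunits NDUFS6, NDUFV3 and NDUFS4 had log2 fold changes of 0.07 ± 0.06, 0.03 ± 0.08 and −0.02 ± 0.09 (SE). In all, edgeR called 3 of 8 N module genes and 0 of 8 genes of the Q module and its border. It called 0 of 20 accessory genes of the membrane arm, and 16.1% of all tested genes. At an unadjusted p under 0.05 there were 3, 1 and 2 genes of these modules in this order, against 29.4% of all genes. With replicate 2 of both groups left out, 0 subunits were called, the N module genes included. No test of the difference between modules was made.

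No Q module gene passed. NDUFA5, NDUFA6, NDUFA7 and NDUFA9 were counted here as accessory subunits of the Q module and its border. NDUFS7, a core subunit that carries an iron-sulfur cluster beside the ubiquinone pocket, stood at 35.3 ± 2.85 CPM in MUCP1-FLAG and 32.5 ± 3.53 CPM in LV-NC (log2 fold change 0.12 ± 0.08 SE, edgeR adjusted p 0.356). NDUFS8, a ferredoxin-like core subunit, and NDUFS3, a core subunit of the earliest Q module intermediate, had log2 fold changes of −0.02 ± 0.07 and 0.07 ± 0.08 (SE). NDUFA6, an accessory subunit of the LYR family, had the lowest p of this module, with 38.6, 41.7 and 39.0 CPM in MUCP1-FLAG and 32.6, 36.6 and 36.4 CPM in LV-NC. Its groups were apart (log2 fold change 0.18 ± 0.07 SE, edgeR adjusted p 0.0900), and without LV-NC replicate 3 its edgeR adjusted p was 0.0467. NDUFA9 (log2 fold change 0.10 ± 0.09 SE, edgeR adjusted p 0.488), NDUFA7 (−0.07 ± 0.09 SE) and NDUFA5 (0.02 ± 0.06 SE) had overlapping groups.

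No accessory gene of the membrane arm passed either. NDUFS5, a proximal subunit on the side of the intermembrane space, had 36.4, 39.1 and 34.0 CPM in MUCP1-FLAG and 30.6, 33.5 and 31.8 CPM in LV-NC (log2 fold change 0.19 ± 0.07 SE, edgeR adjusted p 0.0767). The groups were apart, and 6 annotated pseudogenes carry its name, so reads may be shared with them. NDUFB2 of the distal arm had 39.5, 44.1 and 40.3 CPM in MUCP1-FLAG and 37.3, 37.8 and 35.6 CPM in LV-NC, also apart (log2 fold change 0.17 ± 0.07 SE, edgeR adjusted p 0.105). NDUFB3, of the same arm, had 20.7, 27.5 and 25.4 CPM in MUCP1-FLAG and 18.6, 23.4 and 21.8 CPM in LV-NC (log2 fold change 0.21 ± 0.10 SE, edgeR adjusted p 0.180). Its groups overlapped, and without MUCP1-FLAG replicate 1 its edgeR adjusted p was 0.0474. The most negative subunit values were those of NDUFA13, also known as GRIM-19 (log2 fold change −0.11 ± 0.08 SE, edgeR adjusted p 0.440), and NDUFB9 (log2 fold change −0.09 ± 0.06 SE, edgeR adjusted p 0.327). NDUFC2 and NDUFB11, among the most abundant, had log2 fold changes of 0.10 ± 0.06 and 0.08 ± 0.06 (SE). The subunit with the largest SE was NDUFB1, with 13.1, 16.9 and 11.5 CPM in MUCP1-FLAG and 10.6, 15.1 and 12.2 CPM in LV-NC (log2 fold change 0.13 ± 0.15 SE, edgeR adjusted p 0.610). NDUFB4 and NDUFA5 each share their name with 12 annotated pseudogenes, so their counts are uncertain. NDUFAB1, the mitochondrial acyl carrier protein, which sits in both arms, had 55.8 ± 2.95 CPM in MUCP1-FLAG and 53.1 ± 0.7001 CPM in LV-NC (log2 fold change 0.07 ± 0.06 SE, edgeR adjusted p 0.458).

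Across the subunits, 6 of 37 (16.2%) had all 3 MUCP1-FLAG values above all LV-NC values and 0 had them all below. Of all tested genes, 16.6% were apart on the higher side and 16.4% on the lower (33% in all). The subunits' summed level was 1916, 2072 and 1901 CPM in MUCP1-FLAG and 1865, 1910 and 1820 CPM in LV-NC. These sums overlapped, since the second LV-NC library stood above the third MUCP1-FLAG library. They made up 0.195% ± 0.0082 of all counts in MUCP1-FLAG and 0.188% ± 0.0036 in LV-NC. In bulk RNA, a change in the share of cells that express a gene and a change in RNA per cell cannot be told apart.

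A single library stood above its group for most subunits. MUCP1-FLAG replicate 2 was the highest of its group for 30 of 37 subunit genes and lay above the gene's group mean for 34, with a median deviation of 0.10 on the log2 scale. Replicates 1 and 3 of MUCP1-FLAG had medians of −0.06 and −0.05. In LV-NC, replicate 2 was the highest for 20 of 37, with a median deviation of 0.04, and the medians of replicates 1 and 3 were 0.01 and −0.03. Over all tested genes the library medians lay between −0.0075 and 0.003. Replicate 2 was also the deepest library of each group, with 23282604 counts in MUCP1-FLAG and 21534908 in LV-NC. The part of depth in this pattern was not tested. Leaving out MUCP1-FLAG replicate 2 left 1 subunit called higher, and leaving out LV-NC replicate 2 also left 1. Calls over all genes also became fewer without LV-NC replicate 2, with 671 higher and 684 lower by edgeR. With all libraries they were 1079 higher and 996 lower. With replicate 2 of both groups left out, an alternative chosen after seeing the data, edgeR called 0 subunits, with 2 at an unadjusted p under 0.05, while 419 of all genes were called higher and 435 lower. NDUFA12, NDUFS1 and NDUFA2 then had log2 fold changes of 0.22, 0.18 and 0.20, with edgeR adjusted p of 0.152, 0.186 and 0.408.

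**Figure D4:**
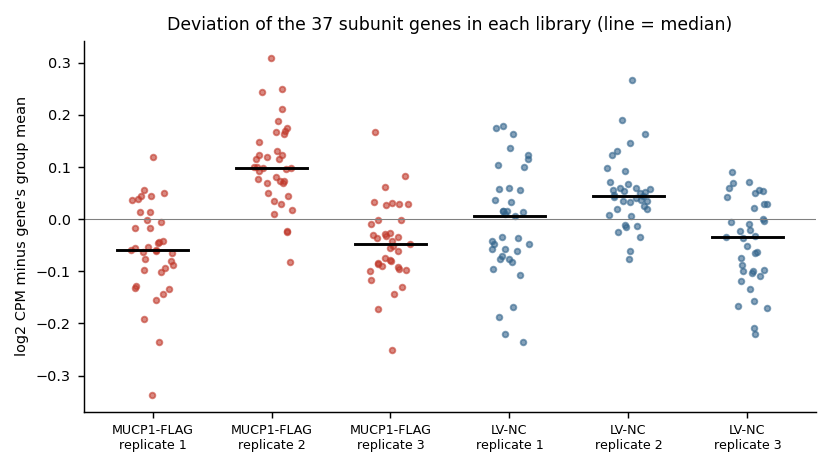
Log2 CPM of each of the 37 subunit genes (points) in each library minus that gene's mean in its group, with MUCP1-FLAG left of LV-NC and a line at the median. MUCP1-FLAG replicate 2 has a median of 0.10 with 34 of 37 genes above the group mean, and the medians of the other libraries lie between −0.06 and 0.04.

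None of the 8 NDUFAF assembly factors passed the test by edgeR, DESeq2 or limma, and 0 had an unadjusted p under 0.05 in any of these. Over all tested genes, edgeR called 16.1%, and 29.4% had an unadjusted p under 0.05, so 8 genes are few for this comparison. The median log2 fold change of the NDUFAF genes was 0.01, with 4 positive and 4 negative values, beside 0.07 for the subunits. With limma on log2(FPKM + 1) the NDUFAF median was −0.05. Their summed level was 166, 172 and 165 CPM in MUCP1-FLAG and 170, 171 and 162 CPM in LV-NC, which overlap. In CPM, 2 of the 8 had groups apart on the higher side and 2 on the lower, against 16.6% and 16.4% of all genes. Within groups, the median of a single library had an SD of 0.07 for the subunits and 0.05 for the assembly factors on the log2 scale. These SDs do not measure the spread of a difference between median fold changes, and that difference was not tested.

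NDUFAF1, which works with ECSIT, ACAD9 and TMEM126B on the early membrane arm, had 12.4, 13.3 and 13.9 CPM in MUCP1-FLAG and 14.0, 15.1 and 15.6 CPM in LV-NC. The groups were just apart in CPM and overlapped in FPKM (log2 fold change −0.17 ± 0.09 SE, edgeR adjusted p 0.233). NDUFAF4, which with NDUFAF3 guides the early Q module, had 27.9, 27.4 and 27.1 CPM in MUCP1-FLAG and 28.04, 29.05 and 28.4 CPM in LV-NC, also apart by a small margin (log2 fold change −0.05 ± 0.07 SE, edgeR adjusted p 0.657). NDUFAF3 had 22.2, 22.5 and 22.2 CPM in MUCP1-FLAG and 24.8, 23.1 and 21.8 CPM in LV-NC, which overlap (log2 fold change −0.06 ± 0.08 SE, edgeR adjusted p 0.687). The most positive value was that of NDUFAF6, a factor needed for the membrane subunit ND1, with 21.3, 23.02 and 23.2 CPM in MUCP1-FLAG and 19.4, 21.2 and 20.9 CPM in LV-NC (log2 fold change 0.13 ± 0.08 SE, edgeR adjusted p 0.280). NDUFAF7, a methyltransferase of the mitochondrial matrix, had 18.3, 18.8 and 18.4 CPM in MUCP1-FLAG and 16.1, 18.1 and 18.1 CPM in LV-NC (log2 fold change 0.09 ± 0.08 SE, edgeR adjusted p 0.537). For NDUFAF6 and NDUFAF7 all MUCP1-FLAG values were above all LV-NC values in CPM, and the groups were not apart in FPKM.

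NDUFAF5 hydroxylates an arginine of NDUFS7, and NDUFAF8 stabilises NDUFAF5. NDUFAF5 had 13.4, 14.1 and 11.8 CPM in MUCP1-FLAG and 13.5, 13.4 and 11.4 CPM in LV-NC (log2 fold change 0.04 ± 0.10 SE, edgeR adjusted p 0.851). NDUFAF8 had 21.3, 22.4 and 20.0 CPM in MUCP1-FLAG and 22.5, 21.3 and 17.2 CPM in LV-NC (log2 fold change 0.07 ± 0.09 SE, edgeR adjusted p 0.688). Both had overlapping groups. NDUFAF2, the paralogue of NDUFA12 that holds its place during assembly, had 28.9, 30.5 and 28.2 CPM in MUCP1-FLAG and 31.3, 29.4 and 28.6 CPM in LV-NC. Its groups overlapped (log2 fold change −0.02 ± 0.07 SE, edgeR adjusted p 0.865), beside the rise of NDUFA12, and the difference between these paralogues was not tested.

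The remaining rows were not called either. NDUFA4 had 88.1, 98.1 and 92.6 CPM in MUCP1-FLAG and 87.8, 86.3 and 88.0 CPM in LV-NC (log2 fold change 0.09 ± 0.05 SE, edgeR adjusted p 0.285). Its groups were just apart in CPM and overlapped in FPKM. NDUFA4L2, known as a target of hypoxia-inducible factor, was low, with 24, 42 and 26 counts in MUCP1-FLAG and 35, 46 and 26 counts in LV-NC (log2 fold change −0.22 ± 0.27 SE, edgeR adjusted p 0.638). NDUFC2-KCTD14 had 55, 114 and 36 counts in MUCP1-FLAG and 52, 87 and 40 counts in LV-NC, highest in replicate 2 of each group (log2 fold change 0.19 ± 0.34 SE, edgeR adjusted p 0.771).

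Of 13 assembly genes without an NDUF symbol, 1 rose (7.69%) and 0 fell by edgeR, beside 8.35% higher and 7.71% lower over all genes. At an unadjusted p under 0.05 there were 2 (15.4%), beside 29.4% of all genes. AIFM1, a flavoprotein that helps CHCHD4 to import proteins into the intermembrane space, had 105, 109 and 112 CPM in MUCP1-FLAG and 98.4, 91.6 and 92.1 CPM in LV-NC (log2 fold change 0.21 ± 0.05 SE, edgeR adjusted p 0.00867). Its adjusted p was 0.0685 by edgeR when LV-NC replicate 2 was left out, 0.0738 by edgeR when MUCP1-FLAG replicate 3 was, and 0.0742 by limma on log2(FPKM + 1). ACAD9, ECSIT and TMEM126B, the partners of NDUFAF1, had log2 fold changes of 0.13 ± 0.06, −0.11 ± 0.09 and −0.10 ± 0.06 (SE) and were not called. Of the 7 mitochondrially encoded subunits, 0 rose and 2 fell by edgeR (28.6%, beside 7.71% of all genes). At an unadjusted p under 0.05 there were 3 (42.9%), all lower, beside 29.4% of all genes in either direction. MT-ND1 had 4319 ± 270 CPM in MUCP1-FLAG and 5293 ± 314 CPM in LV-NC (log2 fold change −0.29 ± 0.05 SE, edgeR adjusted p 0.000493), and MT-ND6 had 209 ± 22.9 CPM in MUCP1-FLAG and 264 ± 14.1 CPM in LV-NC (log2 fold change −0.34 ± 0.07 SE, edgeR adjusted p 0.00251). When LV-NC replicate 3 was left out, the edgeR adjusted p of MT-ND6 was 0.0807. All 7 values were negative, with a median of −0.11, where 28 of 37 nuclear subunits were positive. The difference between these sets was not tested.

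Among 17 genes of iron-sulfur cluster assembly, which supply the N and Q modules, 1 rose and 1 fell by edgeR (5.88% each). Over all tested genes, 8.35% were called higher and 7.71% lower. At an unadjusted p under 0.05 there were 2 of the 17 (11.8%), beside 29.4% of all genes. GLRX5, a glutaredoxin that hands on clusters, had 95.9, 99.7 and 94.5 CPM in MUCP1-FLAG and 89.9, 88.1 and 80.2 CPM in LV-NC (log2 fold change 0.17 ± 0.06 SE, edgeR adjusted p 0.0455). The call of GLRX5 was lost with DESeq2 (adjusted p 0.0577), limma on log2(FPKM + 1) (0.0980), the edgeR replicate block (0.0521) and the stricter edgeR filter (0.0506). Leaving out 1 library also ended it, save for LV-NC replicate 1 (edgeR adjusted p 0.0948 to 0.183). ISCU, the scaffold on which clusters form, had 63.1, 67.1 and 60.3 CPM in MUCP1-FLAG and 73.5, 75.7 and 71.6 CPM in LV-NC (log2 fold change −0.21 ± 0.06 SE, edgeR adjusted p 0.0150). The edgeR adjusted p of ISCU was 0.0951 when LV-NC replicate 2 was left out, 0.0507 when MUCP1-FLAG replicate 1 was and 0.111 when MUCP1-FLAG replicate 3 was. For neither gene did the groups overlap. Of 10 tested genes of other enzymes that hand electrons to ubiquinone, edgeR called 0, beside 16.1% of all tested genes. At an unadjusted p under 0.05 there was 1 (10%), beside 29.4% of all genes. That gene was SDHA, the flavoprotein of complex II, which oxidises succinate (log2 fold change 0.11 ± 0.05 SE, edgeR adjusted p 0.1503). Of 12 regulators of nuclear respiratory genes, 1 fell by edgeR (8.33%, beside 7.71% of all genes) and 0 rose. This was MYC, with 448 ± 6.98 CPM in MUCP1-FLAG and 509 ± 22.5 CPM in LV-NC (log2 fold change −0.18 ± 0.04 SE, edgeR adjusted p 0.00710). Its edgeR adjusted p was 0.0748 when LV-NC replicate 2 was left out and 0.0519 when MUCP1-FLAG replicate 3 was. The other regulators were not called, with log2 fold changes of NRF1 at 0.04 ± 0.08, GABPA at −0.06 ± 0.07 and YY1 at −0.07 ± 0.05 (SE). ESRRA and PPARGC1A had larger values, −0.16 ± 0.07 and 0.66 ± 0.41 (SE), with edgeR adjusted p of 0.116 and 0.303. PPARGC1A was low, at means of 0.756 CPM in MUCP1-FLAG and 0.472 CPM in LV-NC. Its groups were apart on the higher side, and those of YY1 on the lower. At an unadjusted p under 0.05 there were 2 regulators (16.7%), both lower, beside 29.4% of all genes. With replicate 2 of both groups left out, AIFM1, GLRX5, ISCU and MYC were not called, with edgeR adjusted p of 0.202, 0.299, 0.136 and 0.165.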

How the data were processed

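The authors deposited 1 table with read counts and FPKM for each gene in 6 libraries. Tools listed in the submitters' processing notes are fastp, HISAT2, featureCounts and DESeq2, with GRCh38 as build and no versions or roles. The authors' table also holds p-values and log2 fold changes (the ratio of their mean FPKM). Counts were tested with edgeR 4.0.16 in R 4.3.3 (quasi-likelihood F test, robust, TMM) on the 12920 genes that filterByExpr kept at a minimum count of 10, with Benjamini-Hochberg adjustment over these and a threshold of 0.05. An SE is the log2 fold change over the root of F. The fit was tested on simulated data. DESeq2 1.42.0, limma 3.58.1 on log2 FPKM, other scalings and filters, a replicate block and left-out libraries were alternatives. No 2 libraries of a group were alike within counting error (chi-square per degree of freedom at least 2.56). Members and lists were chosen with earlier results of these data known. By rule, full statistics went to called members, all NDUFAF genes, the read-through row, the 3 largest uncalled differences, the 3 highest and 3 lowest levels and, of each other list, called genes and the lowest p. Of the 48 members, 1 is counted in the lists and not reported by name here. Further genes were chosen after their values were seen. Coordinates are from GENCODE 29, promoters from RefSeq.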

Additional observations from a re-analysis of the deposited data

How the results depend on the processing

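With 3 libraries a group, the smallest subunit difference called was 1.14-fold (NDUFS1). Over all genes, limma called 517 higher and 553 lower on log2(FPKM + 1), and 510 higher and 543 lower on log2(FPKM + 0.1). The NDUFAF median was then −0.0457 and −0.0494, and NDUFAF5 was −0.0539 and −0.0605. With libraries left out, singly or replicate 2 of both groups together, edgeR called 419 to 1323 genes higher and 435 to 1213 lower, and 0 to 4 subunits higher, the lowest values all without replicate 2 of both groups. The subunit median was 0.0223 to 0.1008 and the NDUFAF median −0.0437 to 0.0458. A group left with 2 libraries shares the spread of the other. Among the members whose sign changed there, the log2 fold changes of those described in full were NDUFV2 −0.0101 to 0.0458, NDUFS3 −0.0076 to 0.1391, NDUFS8 −0.1005 to 0.0377, NDUFA9 −0.0031 to 0.2042, NDUFAF2 −0.0613 to 0.0135, NDUFAF5 −0.0360 to 0.1071, NDUFAF8 −0.0372 to 0.1431 and NDUFC2-KCTD14 −0.2492 to 0.4892. In all, 20 of 48 members changed sign in at least 1 of 14 alternatives, and 0 of these were called in any. No alternative called a subunit lower or an NDUFAF gene in either direction. The cause was not tested. A block for the replicate number called 3 subunits higher and changed no member's call but ended that of GLRX5 (edgeR adjusted p 0.0521), with 1005 genes called higher and 954 lower. Same-numbered libraries had correlations of 0.0351, 0.0498 and 0.0024 in their deviations from the group means over all tested genes. Pairs with different numbers had −0.0461 to 0.0076. Whether same-numbered libraries share more than a number, such as a day or batch, was not tested.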
